A study of Rattus norvegicus with 12 samples.

Results

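Jejunal and ileal mucosa were compared within the bowel that remained after massive resection in rats with short bowel syndrome (SBS). The comparison took 8 of the 12 arrays in the series, chosen by their labels alone: 4 arrays of SBS jejunum and 4 of SBS ileum. Each of the codes 36, 37, 38 and 39 stands on 1 jejunal and 1 ileal array. The codes were read as animal codes, so that each rat was set against itself. The SBS rats had lost 75% of their bowel. Sham rats had the bowel cut and rejoined, and sham rat 33 gave 1 jejunal and 1 ileal array, which are set beside the resected rats below. The other sham ileal arrays entered the normalisation, the detection filter and alternative fits over all 12 arrays, but not the tests given here as the results. All were male rats of the strain that the labels spell Spraque Dawley. The study began with 6 rats per arm and kept the arrays whose material was of sufficient quality. The sources used here give neither the age of the rats nor the time after surgery or the place along each region. The stated aim of the series was to profile genes related to platelet-derived growth factor (PDGF), and the regional comparison described here is one that its design allows.

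The small intestine changes its absorptive work along its length. The jejunum takes up most sugar and fat and carries much of the drug-metabolising capacity of the gut. The ileum recovers conjugated bile acids and the cobalamin bound to intrinsic factor. It also holds most of the L cells, which make proglucagon and peptide YY. Regional identity in the adult epithelium is maintained by transcription factors, among them GATA4 in the proximal bowel and CDX2 and the homeobox (HOX) genes distally.

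Expression was read as bead signal intensity on Illumina rat arrays, and every level below is a background-corrected, quantile-normalised log2 level. On the SBS jejunal arrays 7041 to 8821 of 22517 probes were detected at a detection p under 0.05, and on the SBS ileal arrays 7514 to 8415. The median deposited signal was 52.1 to 60.7 in SBS jejunum and 52.7 to 62.5 in SBS ileum. Enterocyte markers were detected in both regions. Vil1, which encodes the microvillus protein villin, averaged 9.80 in SBS jejunum and 9.90 in SBS ileum. Fabp2, which encodes the intestinal fatty acid binding protein, averaged 14.06 in SBS jejunum and 13.97 in SBS ileum, and neither passed the test of region described below. Other epithelial genes did and were lower in SBS jejunum, by log2 differences of -0.62 for the brush border cadherin gene Cdhr5, -0.85 for the aminopeptidase gene Anpep and -0.69 for the keratin gene Krt19. The calls of Cdhr5 and Krt19 did not hold in limma without the rat as a term (adjusted p = 0.24 for each). Both were also lost with median scaling (0.14 and 0.22), without rat 36 (0.060 and 0.10) and without rat 37 (0.098 and 0.082). That of Cdhr5 was lost without rat 39 (0.064) and that of Krt19 without rat 38 (0.082). A pair of arrays stood apart. The SBS jejunal array of rat 36 held pancreatic transcripts, with Pnlip (pancreatic lipase) at a log2 level of 9.12, Cela2a (elastase) at 7.12 and Prss1 (trypsinogen) at 6.55. The SBS jejunal array of rat 39 had an ileum-like level of the ileal bile acid binding protein gene Fabp6, described below. Named differences that moved by over 1.5-fold when either rat was left out are also given without it.

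Region separated the remnant bowel broadly. Of 9137 probes kept, 1273 (13.9%) differed between SBS jejunum and SBS ileum at an adjusted p under 0.05 (limma, rat as a term, Benjamini-Hochberg), with 653 higher and 620 lower in jejunum. Among these, 409 differed by more than 2-fold, 222 of them upward and 187 downward, and 1258 ran the same way in all 4 rats. Counted as genes with 1 probe each, 487 of 6704 were higher in SBS jejunum (7.26%) and 511 were lower (7.62%), and the median difference over all genes was -0.02. At an unadjusted p under 0.05 in limma, 2411 of the 9137 probes differed in either direction. That count was 1717 without the rat as a term and 1670 with median scaling in place of quantile normalisation. These shares, counts and this median are the background for the gene groups below. Without the rat as a term 607 probes passed, all of them among the 1273. With median scaling in place of quantile normalisation 599 passed, 411 higher and 188 lower, so that the share of higher calls was 68.6% against 51.3%. With rat 36, 37 or 38 left out 829, 775 and 809 probes passed, and without rat 39 1244 did. The p-values and standard errors rest on the spread between these 4 rats, which limma draws toward the spread typical of all kept probes. That pooled spread carried 6.43 degrees of freedom, against 3 from the rats themselves. Genes uneven across rats thus look more certain than their own 4 differences would make them. Because mucosa was measured in bulk, fewer cells of a type and less RNA per cell cannot be told apart.

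The genes furthest above in SBS jejunum were Alpi, Enpp3 and Reg1a. Alpi, the intestinal alkaline phosphatase, had log2 levels of 13.56, 12.79, 13.63 and 12.11 in SBS jejunum of rats 36 to 39, against 9.57, 6.93, 4.63 and 8.38 in SBS ileum. The groups did not overlap, and the ileal levels spread far more than the jejunal ones, with rat 38 lowest. The log2 difference was 5.65 ± 0.69 (SE), or 50.1-fold (adjusted p = 0.00064), and 4.53 without rat 38 and 6.28 without rat 39. Enpp3, an ectoenzyme that cleaves extracellular nucleotides, had levels of 11.96, 10.79, 11.56 and 10.90 in SBS jejunum, against 8.71, 5.64, 4.42 and 6.11 in SBS ileum. Its groups were also apart, again with rat 36 highest in ileum, and the log2 difference was 5.08, or 33.8-fold (adjusted p = 0.00012), with 5.69 without rat 36 and 4.39 without rat 38. Papss2, which makes the sulfate donor used by sulfotransferases, was at 11.59, 11.03, 11.35 and 11.58 in SBS jejunum and at 8.10, 5.89, 5.70 and 7.08 in SBS ileum. That is a log2 difference of 4.70 ± 0.29 (SE, adjusted p = 1.2e-05), with the jejunal levels within a narrow band.

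Other genes of the leading 15 in this direction were Reg1a (log2 difference 4.90), a secreted lectin of the regenerating family, the glucuronosyltransferases Ugt2b7 (4.31), Ugt2b35 (3.88) and Ugt2b15 (3.88), the retinaldehyde dehydrogenase Aldh1a1 (3.98) and the alcohol dehydrogenase Adh1c (3.57). The trefoil peptide gene Tff2 (3.93), the cysteine protease inhibitor gene Stfa3 (3.82), Tmprss15 (3.74), which encodes enteropeptidase, the activator of trypsinogen, Dao (3.60), a D-amino acid oxidase, and Car2 (3.60), a cytosolic carbonic anhydrase, completed them together with the iron exporter gene Slc40a1, taken up below. In all 15 genes, chosen by size and by the same sign in all 4 rats, every SBS jejunal array lay above every SBS ileal array. Leaving out 1 rat moved some of these log2 differences by over 1.5-fold: Reg1a was at 5.79 without rat 36 and 4.21 without rat 37, Adh1c at 4.30 without rat 36, Aldh1a1 at 3.38 and Tmprss15 at 2.90 without rat 37, and Ugt2b35 at 4.53 and Car2 at 4.20 without rat 39. Ugt2b7 and Tff2 were detected in SBS ileum of 1 rat only, so their ileal levels rest largely on background. Among the 263 called probes with no gene symbol, ILMN_1362645 had a log2 difference of 5.62, close in size to that of Alpi, and ILMN_1364985 one of -6.62, below that of any named gene.

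The genes furthest below in SBS jejunum were Fabp6, Tmigd1 and Slc5a12. Fabp6, the cytosolic bile acid binding protein of ileal enterocytes, had log2 levels of 5.96, 6.15, 7.15 and 13.56 in SBS jejunum, against 14.22, 14.22, 14.43 and 14.22 in SBS ileum. Jejunum of rat 39 stood near the ileal levels, with a difference of -0.66 from its own ileum, while the jejunum of the other rats was far below. On every SBS ileal array Fabp6 ranked 1 or 2 in brightness among all probes, and the quantile step gives such probes nearly the same value on each array. The log2 difference was -6.06 ± 1.03 (SE, adjusted p = 0.0039), and it was -7.87 without rat 39, -5.33 without rat 36 and -5.40 without rat 37. Tmigd1, an adhesion protein of the epithelium, had levels of 6.40, 4.94, 4.83 and 8.04 in SBS jejunum and 11.17, 11.04, 10.57 and 10.72 in SBS ileum. Jejunum of rat 39 was again the highest of its group, and the groups did not overlap (log2 difference -4.82 ± 0.45, SE, adjusted p = 0.00012, and -5.53 without rat 39).

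Slc5a12, a sodium-coupled lactate transporter, was at 6.59, 4.56, 6.05 and 7.24 in SBS jejunum and at 11.10, 10.87, 11.18 and 10.42 in SBS ileum, with the groups apart. The difference was 27.5-fold lower in jejunum (adjusted p = 5.7e-05), but another, dimmer probe of Slc5a12 averaged 5.03 in SBS jejunum and 4.91 in SBS ileum and did not pass (adjusted p = 0.67). The serine protease gene Prss23 (log2 difference -4.11), the peroxide-forming oxidase gene Duox2 (-3.66), Cmahp (-3.66), the sulfite oxidase gene Suox (-3.44) and Acta1 (-3.37), which encodes skeletal muscle actin, were also lower in SBS jejunum. So were the brush border peptidase gene Naaladl1 (-3.21), the ubiquitin-like modifier gene Ubd (-3.14) and the membrane-bound carbonic anhydrase gene Car4 (-2.99). The groups were apart in all of these genes, by little in Ubd, with 8.99 as the highest level in SBS jejunum and 9.12 as the lowest in SBS ileum, and in Car4, with 9.96 and 10.02 at the same ends. The Ubd call was lost without the rat as a term (adjusted p = 0.083). The difference was -4.37 for Duox2 without rat 39, and for Acta1 -2.60 without rat 38 and -4.01 without rat 39.

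**Figure D1:**
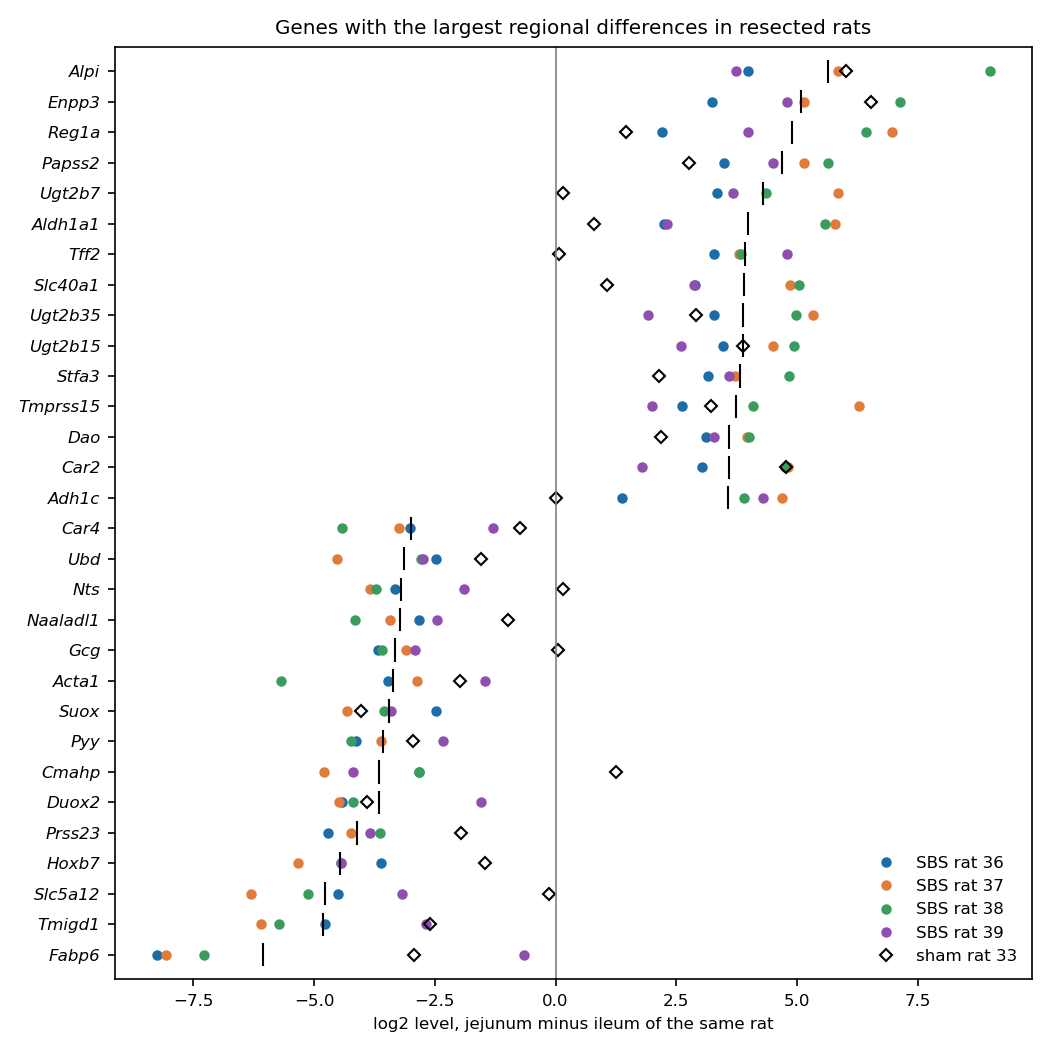
Each row is 1 of the 15 genes furthest above or below in SBS jejunum, and the horizontal axis is the log2 level in jejunum minus that in ileum of the same rat. Filled points are the 4 SBS rats, black ticks their mean and open diamonds sham rat 33. The genes were chosen to have the same sign in all 4 SBS rats, so all SBS points lie on the side of their mean. Rat 39 lies nearest to 0 for Fabp6, at -0.66.

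Upstream sequences of 6 of these regional genes are shown because they stand for the gene groups that follow: Alpi, the hormone gene Gip and the retinol binding protein gene Rbp2 were higher in SBS jejunum, and Fabp6, Slc5a12 and the cobalamin receptor gene Cubn were lower. Each is the 250 bases before the annotated gene start (RefSeq, GRCr8), read 5′ to 3′ in the sense of the gene. Capitals mark matches, on either strand, to AGATAA for GATA factors, TTTATG for CDX factors or CAAAGTCCA for HNF4. The regions are chr9:95224781-95225030 (minus strand) for Alpi, chr10:81464820-81465069 (plus) for Gip, chr8:107963292-107963541 (plus) for Rbp2, chr10:28569728-28569977 (minus) for Fabp6, chr3:117633637-117633886 (plus) for Slc5a12 and chr17:81501695-81501944 (minus) for Cubn.
Alpi: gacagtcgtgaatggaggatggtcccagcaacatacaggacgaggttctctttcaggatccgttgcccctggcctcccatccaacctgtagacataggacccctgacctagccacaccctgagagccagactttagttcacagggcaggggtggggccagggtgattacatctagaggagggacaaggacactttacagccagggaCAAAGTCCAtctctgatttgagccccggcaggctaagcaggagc
Gip: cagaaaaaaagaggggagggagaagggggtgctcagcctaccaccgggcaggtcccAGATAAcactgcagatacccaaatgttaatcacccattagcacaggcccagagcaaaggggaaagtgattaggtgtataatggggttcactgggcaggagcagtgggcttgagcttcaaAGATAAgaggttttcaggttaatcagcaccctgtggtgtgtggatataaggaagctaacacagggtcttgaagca
Rbp2: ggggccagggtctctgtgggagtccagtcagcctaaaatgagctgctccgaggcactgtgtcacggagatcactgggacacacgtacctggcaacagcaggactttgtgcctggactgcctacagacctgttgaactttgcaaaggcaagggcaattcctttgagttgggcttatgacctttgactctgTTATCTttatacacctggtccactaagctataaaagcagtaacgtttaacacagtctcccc
Fabp6: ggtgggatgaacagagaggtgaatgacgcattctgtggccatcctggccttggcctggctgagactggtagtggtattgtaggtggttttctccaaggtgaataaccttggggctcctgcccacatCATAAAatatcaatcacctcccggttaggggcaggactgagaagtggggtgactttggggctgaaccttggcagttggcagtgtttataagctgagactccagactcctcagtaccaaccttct
Slc5a12: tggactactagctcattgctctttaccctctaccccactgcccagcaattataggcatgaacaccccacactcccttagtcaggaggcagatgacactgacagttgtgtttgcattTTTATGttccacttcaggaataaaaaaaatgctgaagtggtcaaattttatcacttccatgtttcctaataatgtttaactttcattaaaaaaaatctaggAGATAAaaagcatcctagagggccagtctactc
Cubn: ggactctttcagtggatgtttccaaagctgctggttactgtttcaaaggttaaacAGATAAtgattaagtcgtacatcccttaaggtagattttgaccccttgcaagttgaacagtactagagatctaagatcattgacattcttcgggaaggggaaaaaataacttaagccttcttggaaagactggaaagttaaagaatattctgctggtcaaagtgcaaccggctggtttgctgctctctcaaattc
Counted back from the gene start, the Alpi window held CAAAGTCCA from base -44, and the Gip window held AGATAA from bases -194 and -75. Rbp2 held AGATAA on the opposite strand from base -61. Among the genes lower in jejunum, Fabp6 held TTTATG on the opposite strand from base -124, Slc5a12 held TTTATG from base -134 and AGATAA from base -33, and Cubn held AGATAA from base -195. Such matches were found on both sides of the comparison. AGATAA stood in 6.95% of the windows of genes higher in SBS jejunum, in 6.24% of those lower and in 6.29% of the 5626 windows of all measured genes. TTTATG stood in 8.19% of the windows of the higher genes, 7.19% of those of the lower genes and 6.43% of all. CAAAGTCCA stood in 0.74% of the higher, 0.24% of the lower and 0.43% of all. Among genes over 2-fold different, AGATAA stood in 12.7% of the windows of the higher genes and in 9.48% of those of the lower genes, TTTATG in 11.3% of the higher and 11.2% of the lower, and CAAAGTCCA in 2.11% (3 of 142) of the higher and in 0 of 116 of the lower.

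Of 29 measured regional and enterocyte factors, 5 were higher and 7 lower in SBS jejunum, with a median log2 difference of -0.09. Gata4 had log2 levels of 7.00, 6.93, 7.29 and 6.64 in SBS jejunum, and in SBS ileum, where it was not well above background on any array, 4.60, 4.26, 4.33 and 4.31. It was at least 4.61-fold higher in jejunum (adjusted p = 5.8e-06), and the levels of each region were alike across the 4 rats. Its relatives Gata5 and Gata6 differed by -0.26 and 0.34 and did not pass (adjusted p = 0.21 and 0.18). Hoxb7 was the reverse of Gata4, not well above background in SBS jejunum (4.32, 4.40, 4.26 and 4.64) and at 7.93, 9.72, 8.70 and 9.08 in SBS ileum. It was at least 16.9-fold lower in jejunum (adjusted p = 5.2e-06). Of the other HOX genes measured, Hoxb5 was lower by little (-0.60, adjusted p = 0.025) and lost its call without the rat as a term (0.091), with median scaling (0.11) and without rat 37 (0.13), rat 38 (0.077) or rat 39 (0.071). Hoxb8 (-0.41, adjusted p = 0.22) and Hoxc9 (-0.21, adjusted p = 0.34) did not pass. Cdx2 was at 6.73, 6.57, 6.81 and 6.70 in SBS jejunum, against 7.38, 7.26, 7.33 and 7.23 in SBS ileum, a small log2 difference of -0.60 ± 0.12 (SE, adjusted p = 0.0087) that was alike in every rat. The Cdx2 call was lost with median scaling (adjusted p = 0.14) and without rat 37 (0.052). The nuclear receptor gene Pparg (1.40) was also higher in jejunum, with overlapping groups, while the bile acid receptor gene Nr1h4 (-1.19) was lower.

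Bile acid genes were mostly lower in SBS jejunum. Of 8 measured genes, 6 were lower and 1 was higher in SBS jejunum, with a median log2 difference of -1.44, and the same counts held without the rat as a term and with any rat left out. Slc10a2, the apical bile acid importer, had log2 levels of 4.57, 4.46, 4.41 and 4.96 in SBS jejunum, detected in 1 rat, against 7.27, 7.03, 6.72 and 6.88 in SBS ileum. In rat 39 this importer was low in jejunum, unlike Fabp6 (log2 difference over all rats -2.38 ± 0.15, SE, adjusted p = 1.4e-05). Slc51a and Slc51b, the subunits of the basolateral exporter, were lower in SBS jejunum by log2 differences of -1.68 and -2.62. Slc51b was at 8.17, 7.30, 7.21 and 7.72 in SBS jejunum and at 10.36, 9.94, 10.09 and 10.47 in SBS ileum. The receptor gene Nr1h4 (-1.19) and the exporter gene Abcc3 (-1.08) followed the same direction, and Nr0b2, a target of that receptor, did not pass (-0.19). Abcg5, a subunit of the transporter that returns sterols to the lumen, was the exception and was higher in jejunum (1.31 ± 0.18, SE, adjusted p = 0.0011).

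Of 5 measured cobalamin genes 3 were lower in SBS jejunum, and 1, Cubn, without the rat as a term or with median scaling. Cubn, the receptor cubilin that takes up cobalamin bound to intrinsic factor, had log2 levels of 4.85, 4.36, 4.74 and 5.12 in SBS jejunum, detected in 1 rat, and of 8.19, 6.35, 8.74 and 7.61 in SBS ileum. The groups were apart and the ileal levels uneven, with rat 37 lowest (log2 difference -2.96 ± 0.28, SE, adjusted p = 0.00013). Amn, which encodes the partner of cubilin at the membrane, was lower in jejunum (log2 difference -1.06), as was Tcn2, the plasma cobalamin carrier (-0.80), both with overlapping groups. Their calls did not hold without the rat as a term (adjusted p = 0.20 and 0.26) or without rat 37 (0.066 and 0.15), and that of Tcn2 did not hold without rat 36 (0.075) or rat 39 (0.11) either. Lmbrd1, which moves cobalamin out of lysosomes, and the endocytic adaptor gene Dab2 did not pass (-0.07 and 0.34).

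**Figure D2:**
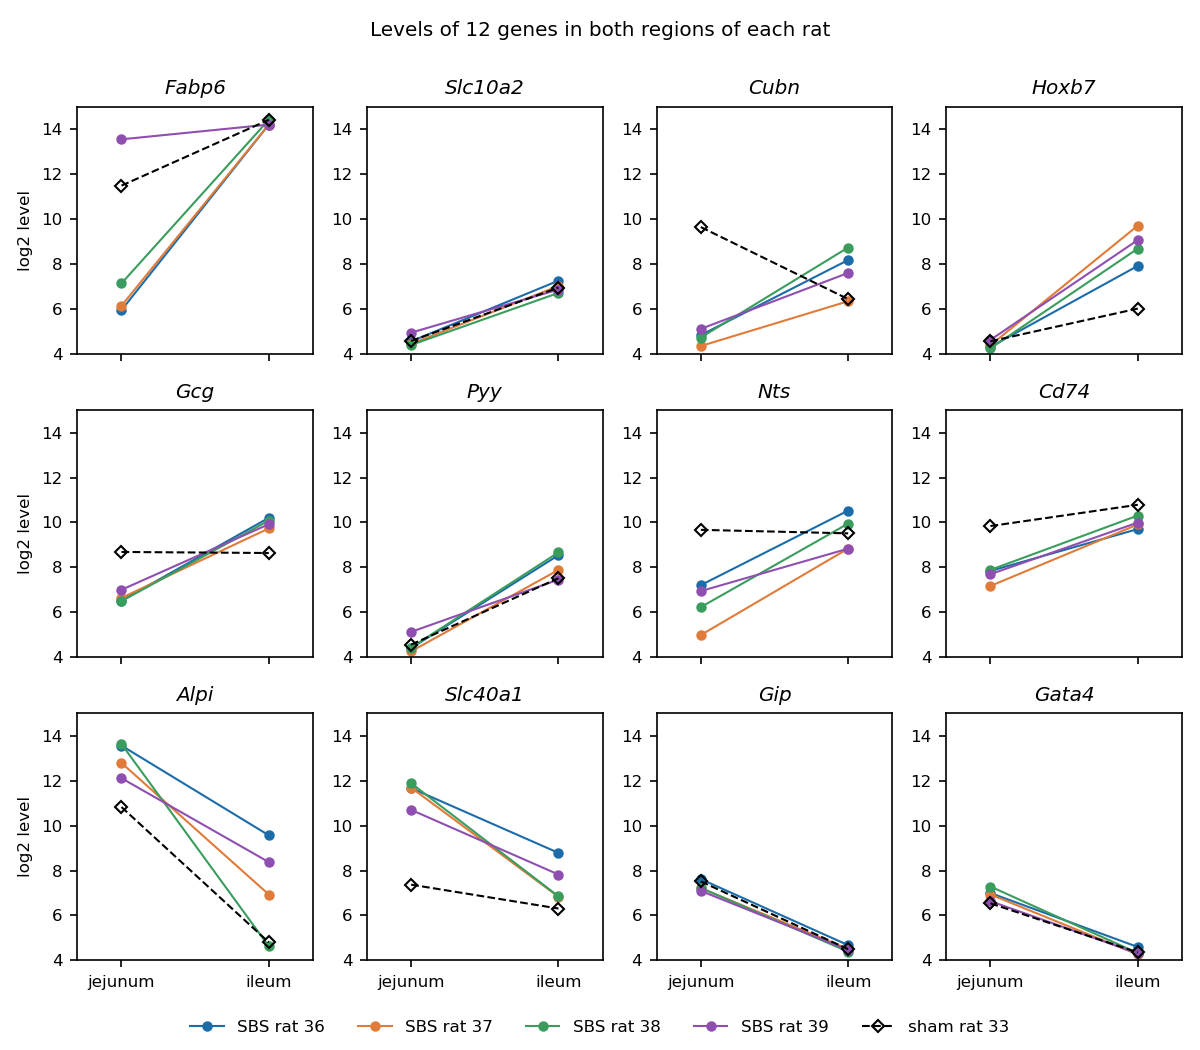
Log2 levels of 12 genes are drawn with jejunum left and ileum right, 1 line per rat (coloured, 4 SBS rats; dashed with diamonds, sham rat 33). The SBS lines run upward to the ileum for Fabp6, Slc10a2, Cubn, Hoxb7, Gcg, Pyy, Nts and Cd74 and downward for Alpi, Slc40a1, Gip and Gata4. The sham line runs the other way from the SBS lines for Cubn, with 9.66 in sham jejunum and 6.45 in sham ileum.

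Of 12 measured iron genes 6 were higher in SBS jejunum and 6 did not pass, with a median log2 difference of 0.39, and 5 were higher without the rat as a term or with any rat left out. Slc40a1, the basolateral exporter ferroportin, had log2 levels of 11.67, 11.69, 11.88 and 10.70 in SBS jejunum, against 8.79, 6.84, 6.85 and 7.82 in SBS ileum. All 4 rats showed a wide gap, narrower in rats 36 and 39 (log2 difference 3.91 ± 0.36, SE, 15.1-fold, adjusted p = 0.00011). The apical importer gene Slc11a2 was at 10.29, 10.45, 9.75 and 10.44 in SBS jejunum and at 8.81, 7.99, 9.10 and 8.73 in SBS ileum (1.58 ± 0.24, SE, adjusted p = 0.0021). Slc46a1, a folate and haem carrier, was not well above background in SBS ileum and was at least 3.04-fold higher in jejunum, and Hmox1, the haem-degrading oxygenase, was higher by 1.50. Ireb2, a regulator of iron-responsive messages, was higher by 1.76. The ferritin heavy chain gene Fth1 passed narrowly (0.52, adjusted p = 0.047) and missed the threshold with any rat left out (adjusted p 0.058 to 0.20), and its probe was among the 8 brightest on every SBS array. Heph, the ferroxidase that works with ferroportin, the light chain gene Ftl1, the transferrin receptor gene Tfrc, Hfe, Aco1 and Tf did not pass, with differences from -0.23 to 0.26.

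Of the calcium genes, those for the cytosolic carrier and the basolateral pump were higher in SBS jejunum. S100g, the calcium binding protein calbindin-D9k, had log2 levels of 10.71, 10.92, 11.49 and 9.39 in SBS jejunum and 8.97, 8.04, 8.05 and 9.30 in SBS ileum. Rats 36 to 38 showed a wide gap and rat 39 almost none (log2 difference 2.04 ± 0.43, SE, adjusted p = 0.013, and 2.68 without rat 39). Its call was lost without rat 37 (adjusted p = 0.062). Atp2b1, the plasma membrane calcium pump, was at 9.92, 9.58, 9.53 and 9.89 in SBS jejunum and at 7.54, 7.38, 7.37 and 7.79 in SBS ileum, with almost the same gap in every rat (2.21 ± 0.12, SE, adjusted p = 5.8e-06). The other 4 of the 6 measured genes, the channel gene Trpv6, the vitamin D receptor gene Vdr and the claudin genes Cldn2 and Cldn12, did not pass, with differences from -0.41 to 0.29.

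Some fat and retinoid genes were higher in SBS jejunum. Of 20 genes for fat uptake and chylomicron assembly, 7 were higher in SBS jejunum, and the median log2 difference was 0.41. Without the rat as a term 3 of the 20 were higher, and with 1 rat left out 5 to 8 were. The fatty acid receptor gene Cd36 had log2 levels of 7.25, 7.45, 7.23 and 5.93 in SBS jejunum and 5.69, 4.85, 5.68 and 5.60 in SBS ileum, with the smallest gap in rat 39 (1.51 ± 0.28, SE, adjusted p = 0.0070, and 1.90 without rat 39). The factor gene Creb3l3 (1.39), the triglyceride-forming enzyme gene Dgat1 (1.02) and the lipoprotein receptor gene Scarb1, which was at least 1.71-fold higher, also passed. The main enterocyte fatty acid binding proteins Fabp1 and Fabp2 differed by 0.05 and 0.08 and did not pass. Fatty acid oxidation was mixed, with 6 of 20 measured genes higher and 2 lower and a median of 0.17, and without the rat as a term 2 of the 20 passed. Among them Hadh, a mitochondrial enzyme of beta-oxidation, was higher by 1.13. The acetyl-CoA thioesterase gene Acot12 was lower (-1.20), with overlapping groups, and lost its call without the rat as a term (adjusted p = 0.21).

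Of 12 retinoid genes, 7 were higher in SBS jejunum and 5 did not pass, and the median log2 difference was 1.18, the highest of all lists with at least 3 measured genes. Aldh1a1, which forms retinoic acid, was at 9.49, 11.36, 10.82 and 9.75 in SBS jejunum and 7.25, 5.58, 5.24 and 7.45 in SBS ileum (3.98 ± 0.57, SE, adjusted p = 0.0014). Rats 37 and 38 had differences of 5.78 and 5.59, and rats 36 and 39 of 2.24 and 2.30, and without rat 37 the mean was 3.38. Rbp2, the enterocyte retinol carrier whose upstream sequence is printed above, was at 12.02, 11.57, 12.24 and 11.01 in SBS jejunum and 10.95, 9.53, 10.58 and 9.95 in SBS ileum (1.46 ± 0.18, SE, adjusted p = 0.00061). The carotenoid-cleaving oxygenase genes Bco1 (1.60) and Bco2 (1.61) and Adh1c (3.57) passed as well. The call of Bco1 was lost without the rat as a term (adjusted p = 0.056).

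Gut hormones differed by class. The 3 measured distal hormones were all lower in SBS jejunum, with a median log2 difference of -3.32. Pyy, which encodes peptide YY, had log2 levels of 4.41, 4.27, 4.43 and 5.13 in SBS jejunum, detected only in 1 rat, against 8.54, 7.89, 8.67 and 7.46 in SBS ileum (-3.58 ± 0.27, SE, adjusted p = 4.2e-05). Gcg, the proglucagon gene, was at 6.52, 6.64, 6.50 and 7.00 in SBS jejunum and at 10.21, 9.74, 10.08 and 9.92 in SBS ileum, 9.98-fold apart over the 4 rats (-3.32 ± 0.16, SE, adjusted p = 3.7e-06). Nts, the neurotensin gene, was at 7.21, 4.99, 6.23 and 6.95 in SBS jejunum and at 10.53, 8.84, 9.95 and 8.83 in SBS ileum (-3.19 ± 0.28, SE, adjusted p = 9.1e-05). For all 3 genes the groups were apart. The same 3 passed with any rat left out.

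Of 6 proximal hormones, 5 were higher and 1 lower in SBS jejunum (median 0.76), and 2 to 4 of the 5 passed with 1 rat left out. Gip, the incretin of the upper gut, was at 7.62, 7.22, 7.23 and 7.09 in SBS jejunum and not well above background in SBS ileum (4.68, 4.51, 4.39 and 4.47). It was at least 5.77-fold higher in jejunum (adjusted p = 3.7e-06). Cck, the cholecystokinin gene, was higher by 1.28 ± 0.17 (SE, adjusted p = 0.00086) with overlapping groups and lost its call without the rat as a term (adjusted p = 0.079). Gast, Ghrl and Sst, which encode gastrin, ghrelin and somatostatin, passed in the fit of all 4 rats (adjusted p = 0.020, 0.033 and 0.022). All 3 missed the threshold without rat 36 (0.091, 0.15 and 0.079), Gast and Sst also without rat 37 (0.074 and 0.085), all 3 without rat 38 (0.068, 0.13 and 0.084), and Ghrl without rat 39 (0.090). Sct, the secretin gene, was lower in jejunum, at 6.70, 6.22, 6.48 and 5.77 against 7.70, 7.09, 7.89 and 6.99 in SBS ileum (-1.13 ± 0.13, SE, adjusted p = 0.00052). The 4 measured granule genes of enteroendocrine cells, with Chgb the furthest from 0 at 0.54, had no call in limma, and 1 had an unadjusted p under 0.05.

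Digestive enzymes and nutrient transporters split within each class. Of the 10 brush border structure, disaccharidase and phosphatase genes measured, 3 were higher and 1 lower (median -0.10). Akp3, another intestinal phosphatase, was at 9.27, 8.75, 8.93 and 5.34 in SBS jejunum and 5.64, 4.43, 4.44 and 5.05 in SBS ileum. Rat 39 had nearly equal levels in both regions, and the groups overlapped through it (3.18 ± 0.57, SE, adjusted p = 0.0050, and 4.15 without rat 39). Lct, the lactase gene, was not well above background in SBS ileum and passed narrowly (adjusted p = 0.04999), with rat 36 highest in jejunum at 6.38, and its call was lost without rat 36 (0.13), rat 38 (0.11) or rat 39 (0.060). Of 16 peptidases, 4 were higher and 7 lower (median -0.23), and without the rat as a term 2 were higher and 5 lower. Enteropeptidase (Tmprss15, 3.74) led the jejunal side, and Naaladl1, the glutamyl aminopeptidase gene Enpep (-2.58) and the dipeptidase gene Dpep1 (-2.32) led the ileal side. Dpep1 was at 7.96, 6.81, 7.00 and 7.06 in SBS jejunum and at 9.41, 9.57, 9.73 and 9.38 in SBS ileum (adjusted p = 0.00011). Dpp4 did not pass (0.16).

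Among 13 amino acid and peptide transporters 2 were higher and 3 lower, and without the rat as a term 1 of the 13 passed, Slc1a1. Slc1a1, the glutamate transporter, was at 5.69, 5.81, 6.20 and 6.25 in SBS jejunum and at 7.78, 8.18, 8.38 and 8.51 in SBS ileum, with an even gap across rats (-2.22 ± 0.12, SE, adjusted p = 5.8e-06). The peptide transporter gene Slc15a1 differed by -0.58 (adjusted p = 0.033) and missed the threshold without the rat as a term (0.14) and without rat 36 (0.061), rat 37 (0.13) or rat 39 (0.087). Of 15 genes for sugars and monocarboxylates 6 were higher and 2 lower (median 0.36), and 1 was higher without the rat as a term, with 4 to 7 when 1 rat was left out. G6pc1, the glucose-releasing phosphatase of gluconeogenesis, was at 9.01, 8.94, 8.21 and 7.47 in SBS jejunum and 6.07, 5.54, 5.37 and 5.95 in SBS ileum (2.67 ± 0.25, SE, adjusted p = 0.00014). The glucose transporter gene Slc2a2 was higher by 1.74 (adjusted p = 0.015). Slc5a8, a butyrate and lactate transporter, was on the ileal side with Slc5a12, at 4.30, 5.09, 4.69 and 7.02 in SBS jejunum and 7.31, 7.94, 7.06 and 7.98 in SBS ileum (-2.30 ± 0.29, SE, adjusted p = 0.00069, and -2.74 without rat 39), and rat 39 was the highest of the jejunal group.

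Of 19 measured genes of salt, water and acid-base transport 3 were higher and 7 lower in SBS jejunum (median -0.43), and without the rat as a term 2 were higher and 2 lower. The sulfate transporter gene Slc13a1 was at 10.50, 10.41, 10.45 and 10.87 in SBS jejunum and at 11.95, 12.08, 11.67 and 11.88 in SBS ileum, apart in all rats (-1.34 ± 0.14, SE, adjusted p = 0.00025). Higher in jejunum were the bicarbonate transporter gene Slc4a7 (2.29, adjusted p = 1.4e-05) and the water channel gene Aqp8 (2.39, adjusted p = 0.00047), and Aqp8 was detected in SBS ileum of rat 36 only. All 6 measured carbonic anhydrases passed, 2 higher and 4 lower in jejunum. Car2, cytosolic, was at 10.89, 10.36, 10.61 and 9.14 in SBS jejunum and 7.86, 5.54, 5.86 and 7.35 in SBS ileum, while Car13, also cytosolic, was at 4.55, 4.31, 4.40 and 5.13 in SBS jejunum and 7.33, 7.20, 7.12 and 7.42 in SBS ileum. The other Car13 probe ran in the same direction (-1.45). The guanylins, peptides that drive fluid secretion, were opposed. Guca2b, uroguanylin, was higher in SBS jejunum by 1.09 ± 0.12 (SE, adjusted p = 0.00041) and Guca2a, guanylin, was lower (-1.66 ± 0.15, SE, adjusted p = 0.00012). The Guca2b groups overlapped and its call was lost without the rat as a term (adjusted p = 0.12). Their receptor gene Gucy2c (0.06) and the kinase gene Prkg2 (0.17) did not pass.

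Many genes of xenobiotic metabolism were higher in SBS jejunum. Of 37 conjugation and efflux genes measured 21 were higher and 2 lower, with a median log2 difference of 0.72, and 17 to 22 were higher without the rat as a term or with 1 rat left out. Ugt2b7, a glucuronosyltransferase, had log2 levels of 8.94, 10.14, 8.66 and 8.33 in SBS jejunum and 5.60, 4.30, 4.30 and 4.65 in SBS ileum. Gsta3, a glutathione transferase, was at 7.42, 8.42, 7.86 and 7.64 in SBS jejunum and 5.78, 5.76, 5.35 and 5.07 in SBS ileum (2.34 ± 0.18, SE, adjusted p = 4.0e-05). In both genes all jejunal arrays were above all ileal ones. The UGT2B and GSTA genes are families of close copies whose probes may also take up transcripts of a relative. Maob, which oxidises amines, was higher by 2.28 (adjusted p = 0.00019). Abcg2, an efflux pump, ran the other way, at 10.62, 10.10, 10.14 and 10.06 in SBS jejunum and 12.15, 11.65, 12.09 and 11.38 in SBS ileum (-1.59 ± 0.14, SE, adjusted p = 8.7e-05). Of 22 cytochrome P450 genes 8 were higher and 2 lower (median 0.45), and 4 of the 22 passed without the rat as a term. Cyp2b15 was at 8.49, 9.10, 9.67 and 6.85 in SBS jejunum and 6.21, 5.58, 5.13 and 4.80 in SBS ileum (3.10 ± 0.35, SE, adjusted p = 0.00037), and Cyp1a1, the enzyme induced through the aryl hydrocarbon receptor, was higher by 1.51 (adjusted p = 0.036).

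Some cholesterol synthesis genes were lower and some respiratory chain genes higher in SBS jejunum. Of 15 cholesterol synthesis genes 5 were lower (median log2 difference -0.46), and 14 of the 15 differences were negative. Fdft1, the squalene synthase gene, was at 7.60, 7.43, 7.29 and 7.88 in SBS jejunum and at 8.88, 8.52, 9.16 and 8.01 in SBS ileum (-1.09 ± 0.23, SE, adjusted p = 0.013). Rat 39 had the smallest gap of this gene and of the list, whose median in that rat was -0.004. The count was 9 without rat 39, 1 without any other rat and 0 with median scaling (limma, 3 lower at an unadjusted p under 0.05), and the list's median lay between -0.58 and -0.28 under all settings tried. Of 31 genes of oxidative phosphorylation 9 were higher (median 0.37), and 30 of the 31 differences were positive. Ndufv1, a complex I subunit, was at 8.24, 8.13, 8.16 and 8.35 in SBS jejunum and 7.28, 7.27, 7.11 and 7.23 in SBS ileum, tightly grouped in both regions (1.00 ± 0.12, SE, adjusted p = 0.00054). Uqcrc1 of complex III was higher by 0.91 and Sdhd of complex II by 0.60. With 1 rat left out 2 (without rat 37), 3 (rat 36), 5 (rat 38) or 10 (rat 39) of the 31 passed. Of 53 ribosomal protein genes none passed in limma, 2 had an unadjusted p under 0.05, and the median was -0.09.

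Some proliferation genes were lower in SBS jejunum. Of 29 cell cycle genes 8 were lower (median log2 difference -0.29), and 13 were at an unadjusted p under 0.05. Ccnb2, cyclin B2, had log2 levels of 6.45, 9.40, 8.70 and 8.95 in SBS jejunum and 8.23, 9.84, 9.31 and 9.74 in SBS ileum. The groups overlapped because rat 36 was low in both regions, while each rat was lower in its jejunum (-0.91 ± 0.20, SE, adjusted p = 0.017). Tyms, which makes thymidylate, followed the same pattern (-0.69, adjusted p = 0.0051). Without the rat as a term and with median scaling 0 of the 29 passed in limma, with 0 and 8 lower at an unadjusted p under 0.05, and with 1 rat left out 2 to 5 did, the fewest without rat 36. Of 10 stem and progenitor genes none passed, and 1 in each direction had an unadjusted p under 0.05. Pdgfa and Pdgfra, the measured PDGF genes, differed by -0.03 and 0.16 and did not pass (adjusted p = 0.92 and 0.53), and Pdgfa had 8.38 to 9.22 in SBS jejunum and 8.40 to 9.28 in SBS ileum.

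Genes of 3 immune lists were called lower in SBS jejunum and none of them higher. Of 9 genes of MHC class II presentation 7 were lower (median log2 difference -1.34), and 6 passed without the rat as a term and with any rat left out. Cd74, the invariant chain, had log2 levels of 7.84, 7.18, 7.89 and 7.70 in SBS jejunum against 9.71 to 10.31 in SBS ileum (-2.33 ± 0.15, SE, adjusted p = 1.8e-05). RT1-Db1, a class II beta chain, was at 8.01, 8.20, 8.97 and 8.38 in SBS jejunum and 10.47, 11.01, 11.24 and 10.70 in SBS ileum. The smallest difference of any rat was -1.86 for Cd74 and -2.27 for RT1-Db1. The antigen-presenting chains are close copies of each other and of other RT1 genes, so probes may share signal. The summed signal of the list was 3812 to 6552 in SBS jejunum and 17716 to 20008 in SBS ileum.

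Of 15 T and NK cell genes 12 were lower in SBS jejunum (median log2 difference -1.14). Summed signal was taken over all 20 list genes on the array, including those that failed the detection filter. It was 1529 to 2724 in SBS jejunum and 4023 to 6395 in SBS ileum. Gzma, a granule protease of cytotoxic cells, was at 8.99, 7.48, 8.75 and 7.52 in SBS jejunum and 10.58, 10.52, 10.19 and 10.21 in SBS ileum (-2.19 ± 0.25, SE, adjusted p = 0.00046). Cd8a, a marker of cytotoxic T cells and of many intraepithelial lymphocytes, was at 6.75, 5.60, 6.56 and 5.43 in SBS jejunum and 8.15, 8.51, 7.62 and 7.41 in SBS ileum, with the groups apart. Cd3d, part of the T cell receptor complex, was lower too (-1.50, adjusted p = 0.0024). Without the rat as a term 6 of the 15 passed, with median scaling 5, and without rat 36, 37, 38 or 39 there were 8, 7, 10 and 7. The list's median was -2.19 in rat 37 and from -1.11 to -0.47 in the others. Of 23 genes of the interferon response and class I processing 10 were lower (median -0.60), among them Ubd, the transporter gene Tap1 (-0.87) and the chemokine gene Cxcl9 (-1.21). Without the rat as a term 4 of the 23 passed, and without rat 37 6 did. B and plasma cell genes had 1 of 7 lower, Sdc1 (-0.72), which epithelium also expresses, and its call was lost without the rat as a term (adjusted p = 0.16) and without rat 37 (0.084) or rat 38 (0.077). None of the 6 macrophage and neutrophil genes or the 3 mast cell genes passed in limma, with 2 and 1 lower at an unadjusted p under 0.05.

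Of 13 goblet cell genes 4 were higher and 2 lower (median log2 difference 0.08), with differences from -1.17 to 3.93. Without the rat as a term 4 were higher and 0 lower. Tff2 was at 9.53, 8.42, 8.22 and 9.52 in SBS jejunum and at 6.25, 4.61, 4.37 and 4.73 in SBS ileum, with a gap of at least 3.29 in every rat (3.93 ± 0.21, SE, adjusted p = 5.8e-06). Reg4, a secreted lectin, was at 12.46, 13.01, 11.75 and 11.84 in SBS jejunum and 10.27, 9.12, 9.22 and 8.64 in SBS ileum (2.95 ± 0.24, SE, adjusted p = 6.3e-05). Spink4, a protease inhibitor of goblet cells, was at 13.44, 13.63, 12.67 and 13.31 in SBS jejunum and 11.43, 11.57, 10.98 and 11.18 in SBS ileum (1.97 ± 0.13, SE, adjusted p = 1.6e-05). In these genes the jejunal levels were all above the ileal ones. The common goblet product genes Tff3 (0.16) and Zg16 (0.07) did not pass. Of 13 Paneth and antimicrobial genes 3 were higher and 5 lower (median -0.64), and without the rat as a term 3 were higher and 1 lower. Reg1a was at 13.90, 13.50, 12.47 and 14.22 in SBS jejunum and 11.69, 6.53, 6.05 and 10.23 in SBS ileum, where rats 36 and 39 were high. Lcn2, which binds bacterial siderophores, was higher by 1.52 and Pigr, the carrier of secretory immunoglobulin, by 1.03. Duox2 was at 5.77, 5.57, 6.59 and 8.39 in SBS jejunum and 10.20, 10.06, 10.78 and 9.94 in SBS ileum (-3.66 ± 0.42, SE, adjusted p = 0.00042).

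Markers of tissue below the epithelium varied between arrays of either region. The mean log2 level of 4 smooth muscle genes was 5.01 to 6.50 in SBS jejunum and 4.84 to 6.48 in SBS ileum, and that of 13 fibroblast and matrix genes was 5.60 to 6.49 in SBS jejunum and 4.96 to 6.52 in SBS ileum. No gene of these lists, of the 6 endothelial or of the 6 red blood cell genes passed in limma. At an unadjusted p under 0.05 there were 5 of the 13 fibroblast genes and 2 of the 4 smooth muscle genes, against 2411 of all 9137 probes. The part of such tissue in the results above was not tested. Acta1 was the single skeletal muscle gene of 4 that passed, at 9.77, 8.18, 7.47 and 8.99 in SBS jejunum and 13.24, 11.06, 13.15 and 10.46 in SBS ileum. The other 3 differed by 0.04 to 0.25. Of 8 follicular dendritic cell genes 1 was higher, of 6 adipocyte genes 2 were higher and of 7 tuft cell genes 1 was lower (medians 0.13, 0.41 and -0.20). Of 6 measured pancreatic genes, Pnliprp2 passed (0.97, adjusted p = 0.0035, and 0.78 without rat 36). Summed signal was taken over all 17 pancreatic genes on the array, including those that failed the detection filter. It was 545 to 1545 in SBS jejunum and 514 to 537 in SBS ileum.

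**Figure D3:**
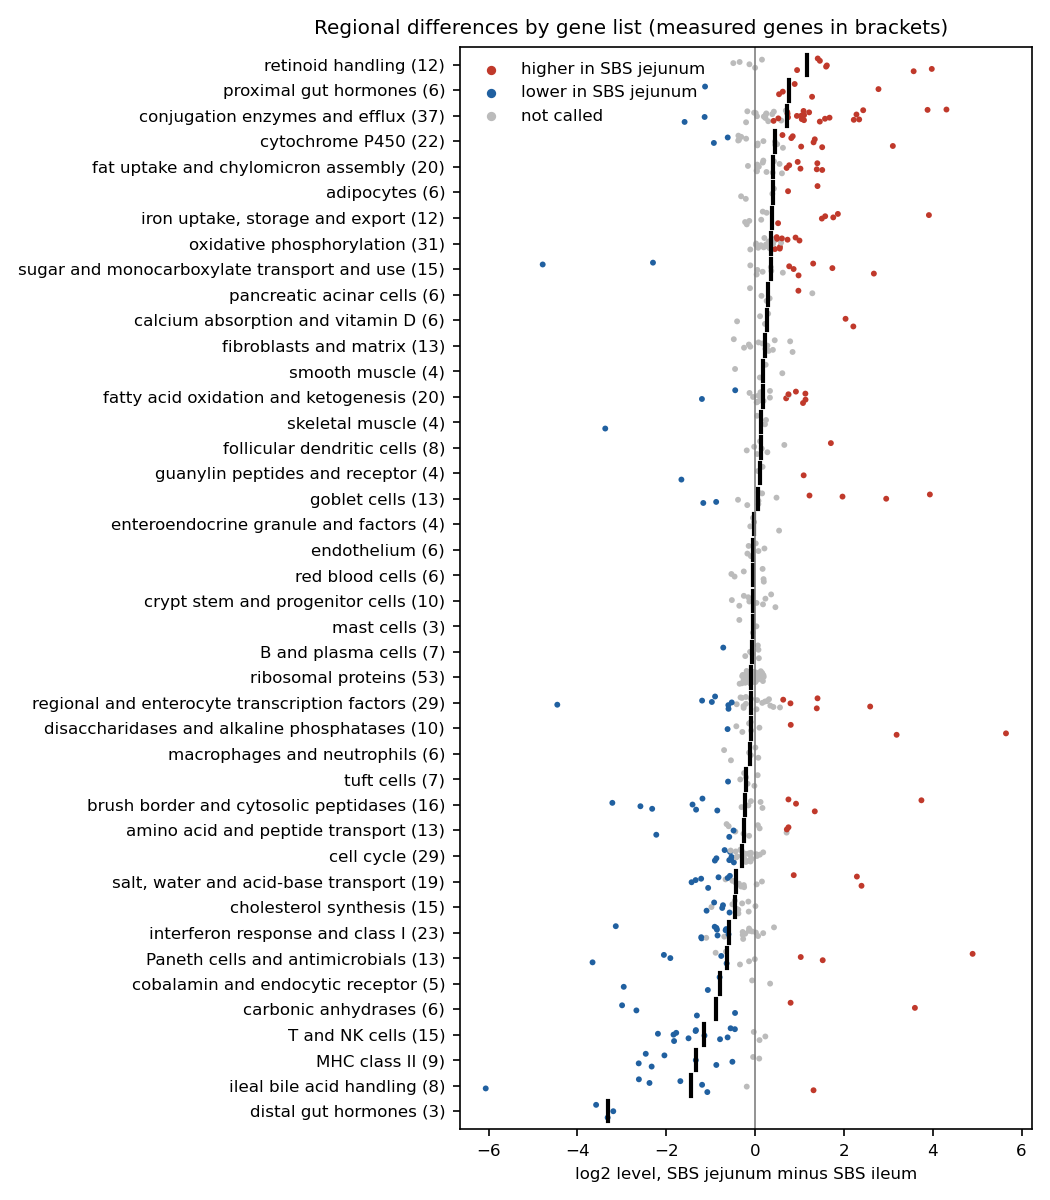
Each row is a gene list with at least 3 measured genes, each point 1 gene, and the horizontal axis the log2 level in SBS jejunum minus SBS ileum over 4 rats. Red points were higher and blue points lower at an adjusted p under 0.05, grey points did not pass, and black ticks are list medians. The medians run from -3.32 for distal gut hormones to 1.18 for retinoid handling.

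The region difference of the resected rats was set against that of sham rat 33, the 1 sham rat with both arrays. Of the 653 probes higher in SBS jejunum 533 (81.6%) were also higher in sham jejunum, against 48.1% of all kept probes, and of the 620 lower ones 521 (84.0%) were lower there, against 51.7%. Probes more than 2-fold apart in SBS rats kept their sign in the sham rat in 87.8% of the higher and 86.6% of the lower cases. The median differences of the higher and lower probes were 0.81 and -0.73 in the SBS rats, whose values chose the probes, against 0.44 and -0.39 in the sham rat. Gata4 was at 6.54 in sham jejunum and 4.36 in sham ileum. Gip was at 7.52 in sham jejunum and 4.50 in sham ileum, and Slc10a2 at 4.59 in sham jejunum and 6.96 in sham ileum. For these the sham values lay close to those of the SBS rats. The median difference of the bile acid list was -1.41 in the sham rat, against -1.44 in SBS rats. The medians of the immune lists were smaller in size in the sham rat. They were -0.21 for MHC class II, 0.17 for T and NK cells and 0.11 for the interferon response, against -1.34, -1.14 and -0.60 in SBS rats. Some genes named above kept part of their difference in the sham rat, with -1.55 for Ubd, -0.96 for Cd8a, -0.95 for Cd74 and -0.79 for RT1-Db1. Cxcl9 (-0.42), Tap1 (-0.39) and Cd3d (-0.34) differed by less there, and Gzma (0.17) ran the other way. A single sham rat cannot show whether these gaps are absent without resection. Jejunum of sham rat 33 had 11.50 for Fabp6, between rat 39 and the others.

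With 1 sham rat the spread of the region difference between sham rats could not be estimated. A test of the difference between the region effects, with the sham rat assumed to vary like the SBS rats, called 14 of 9137 probes (0.153%, limma, adjusted p under 0.05), and 546 had an unadjusted p under 0.05. Cubn was at 9.66 in sham jejunum and 6.45 in sham ileum, the opposite order to all SBS rats (SBS minus sham -6.16 on the log2 scale, adjusted p = 0.0077). Gcg was at 8.69 in sham jejunum and 8.64 in sham ileum, so that the sham rat showed no gap where the SBS rats showed a wide one (-3.37, adjusted p = 0.0077). Nts was at 9.67 in sham jejunum and 9.52 in sham ileum, but its difference of effects did not pass (adjusted p = 0.10), and Pyy was at 4.56 in sham jejunum and 7.52 in sham ileum. Fam151a was at 4.46 to 5.48 in SBS jejunum and 4.36 to 4.89 in SBS ileum, against 10.67 in sham jejunum and 4.86 in sham ileum (-5.51, adjusted p = 0.0024). Cmahp was at 11.69 in sham jejunum and 10.44 in sham ileum (-4.90, adjusted p = 0.029). In the upward direction were Spink4 (3.41), Tff2 (3.86), Atp2b1 (2.28) and Car8 (1.79), a relative of the carbonic anhydrases. Their own differences in sham rat 33 were -1.44 for Spink4, 0.07 for Tff2, -0.07 for Atp2b1 and -0.99 for Car8. Car8 lost its call without rat 36, 37 or 38 (adjusted p = 0.10, 0.11 and 0.083), without the rat as a term over 12 arrays (0.10), with cyclic loess (0.063) and without background correction (0.12). Tff2 lost it without the rat as a term (0.12) and without background correction (0.089), where Cubn (0.064) and Cmahp (0.12) did too, and Cmahp also without rat 39 (0.053). With a background offset of 50 the calls of Gcg, Cubn, Tff2, Cmahp and Car8 were lost, with SBS minus sham at -2.99 for Gcg and -4.82 for Cubn. Cmahp also lost its call with cyclic loess. None of the calls of these named genes held with median scaling or without the detection filter.

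**Figure D4:**
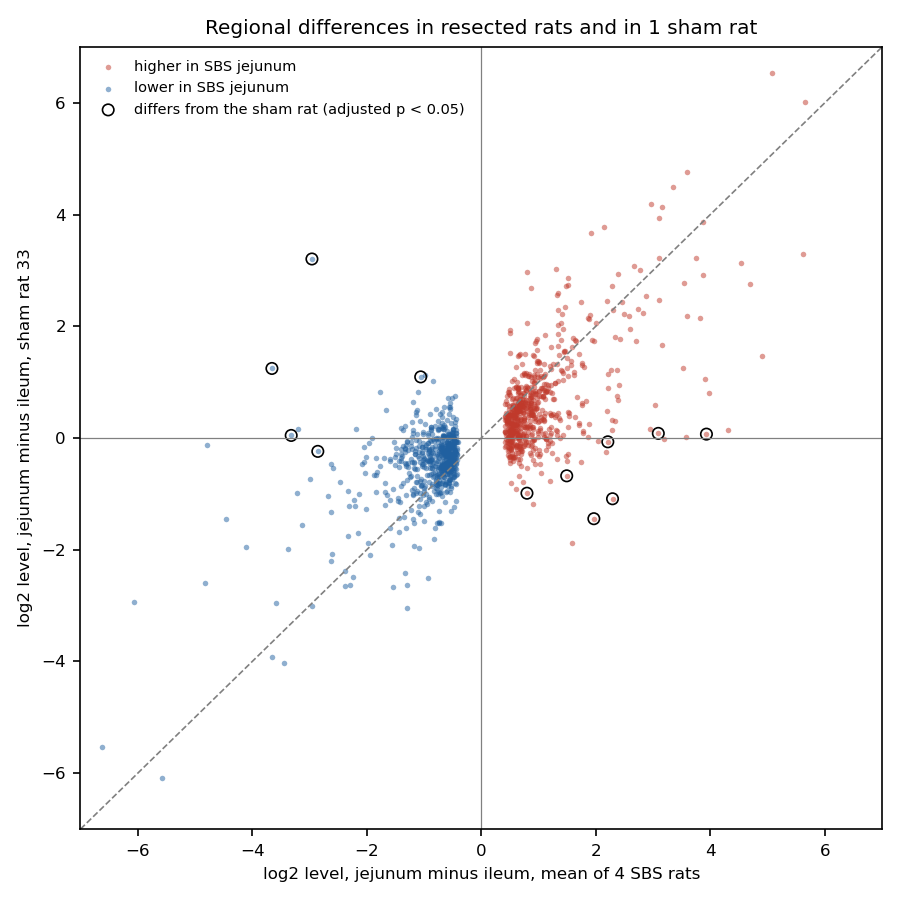
Each point is 1 of the 1273 called probes, with the mean log2 difference (jejunum minus ileum) of the 4 SBS rats on the horizontal axis and that of sham rat 33 on the vertical axis. Red points were higher and blue points lower in SBS jejunum, the dashed line marks equal differences and black rings mark called probes among those whose difference of effects had an adjusted p under 0.05. Most points share their sign on both axes, 81.6% of the red and 84.0% of the blue ones.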

How the data were processed

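Total RNA of intestinal mucosa was labelled with biotin and hybridised to Illumina RatRef-12 bead arrays, per the labels' protocols, which also name the Rat Quad array. The authors deposited 1 signal intensity and 1 detection p-value per probe and array, and a matrix of log2 values. The deposited log2 matrix equalled the quantile-normalised log2 signals without background correction to within 0.010. No source used here names the scanner software.

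All 12 arrays were background corrected from the detection p-values (normexp, offset 16), then quantile normalised as log2 values (limma 3.58.1, R 4.3.3). The filter kept 9137 of 22517 probes, those with a detection p under 0.05 on 3 or more arrays. Symbols came from the array annotation, matched to RefSeq through Entrez identifiers (13747 probes) or accessions (5), and 8730 probes had none. A gene was read from its brightest probe. The region test took the 8 SBS arrays with region and rat as terms, and the sham comparison took 10 arrays. Tests were two-sided, with Benjamini-Hochberg adjustment over 9137 probes. Log2 differences are jejunum minus ileum with model standard errors (SE), and the number of arrays limits the precision.

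Deviations of same-coded arrays from their group means correlated by 0.66, 0.47, 0.19 and 0.44, and each jejunal array matched best the ileal array of its own code. Where no array of a group was well above background, "at least" folds were taken against the higher of the lowest detected level of each array and the level of the probe itself. In simulated data at this size a log2 change of 0.5 was called for 35% of probes, of 1 for 94% and of 2 for 100%. There 200 probes were changed by each amount and 8537 were left unchanged. These rates hold for the simulated data and were not measured on the arrays themselves. The gene lists and members were chosen with earlier results of these data known. Named genes were the 15 leading genes per direction with the same sign in all 4 rats, up to 4 called members per list, every measured member of the short lists, the GATA, CDX and HOX factors, and the leading differences from the sham rat. ILMN_1362645, ILMN_1364985 and members named without a call were added for description. So were the called genes Anpep, Slc2a2 and Cyp1a1, which are given for the fit of all 4 rats only. Alternatives were other backgrounds, normalisations, filters, pairings, array weights, the deposited log2 matrix and leaving out each rat. Upstream sequences were from RefSeq (GRCr8).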

Additional observations from a re-analysis of the deposited data

Results flagged for a closer look

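In 20 of 302 groups of 4 arrays 1 array stood apart from the other 3 relative to their spread, where chance gives about 1 in 20 such groups. The gap itself could be small, as for Dclk1 in jejunum and Cox5a in ileum. Dclk1 was not well above background on any SBS jejunal array. The gap of Fabp6 in ileum lay between ranks 1 and 2 in brightness. In SBS jejunum of rat 39 the levels were 13.56 for Fabp6 (others 5.96 to 7.15), 7.94 for Hfe (others 6.91 to 7.07), 7.68 for Ugt2b15 (others 9.24 to 9.48), 5.93 for Cd36 (others 7.23 to 7.45), 5.34 for Akp3 (others 8.75 to 9.27) and 4.44 for Dclk1 (others 4.42). In SBS jejunum of rat 36 they were 9.07 for Cyp4f1 (others 7.79 to 7.90), 10.62 for Abcg2 (others 10.06 to 10.14) and 6.41 for the pancreatic lipase relative Pnliprp2 (others 5.03 to 5.22). SBS jejunum of rat 37 had 5.29 for Cmahp (others 5.95 to 6.02), and that of rat 38 had 10.25 for Acaa2 (others 9.02 to 9.20).

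In SBS ileum of rat 36 the levels were 6.29 for Stfa3 (others 4.50 to 4.68), 12.32 for Guca2a (others 11.54 to 11.63), 10.30 for Cox5a (others 10.37 to 10.38), 4.85 for Pnliprp2 (others 4.32 to 4.39) and 5.02 for Gucy2c (others 4.62 to 4.68). SBS ileum of rat 37 had 10.02 for Car4 (others 11.27 to 11.38) and 4.85 for Cd36 (others 5.60 to 5.69), that of rat 38 had 14.43 for Fabp6 (others 14.22), and that of rat 39 had 9.59 for Amn (others 10.22 to 10.31).

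The region difference of SBS rats minus that of sham rat 33 passed the test for 8 named genes, at 3.86 for Tff2, 3.41 for Spink4, 2.28 for Atp2b1, 1.79 for Car8, -3.37 for Gcg, -4.90 for Cmahp, -5.51 for Fam151a and -6.16 for Cubn (limma, adjusted p under 0.05). Each rests on 1 sham rat.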

How the results depend on the processing

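No probe called in SBS jejunum against SBS ileum changed sign under any of the 15 other settings. Settings that changed only the rat term or the filter leave each log2 difference as it is, so no sign could change there. Leaving out 1 rat reuses the rats that gave the calls. Without the replicate block 607 probes passed (317 higher, 290 lower), and over 12 arrays 401 were lower. Median scaling gave 599 (411 higher, 188 lower) and testing all 22517 probes 669 (327 higher, 342 lower). Leaving out 1 rat gave 775 to 1244 (412 to 625 higher, 363 to 619 lower), with fewer samples. The count of probes whose region difference set SBS rats apart from the sham rat was 36 with a random replicate block, 5 without background correction and in the deposited matrix, 3 with offset 50, 0 with median scaling in limma (330 at an unadjusted p under 0.05), 9 with cyclic loess, 1 without a filter, and 13 to 26 with 1 rat left out. Of 129 named genes that passed, 31 did not without the replicate block, 25 with median scaling, 47 without a filter, where more probes are tested, and 7 to 21 without 1 rat, and the other causes were not tested. Differences near 0 that had not passed changed sign for Lmbrd1 (0.12 with median scaling, 0.045 with cyclic loess, -0.15 to 0.020 with 1 rat left out), Heph (0.036 with median scaling, -0.26 to 0.042 with 1 rat left out), Pdgfa (0.14 with median scaling, 0.063 with cyclic loess) and Gucy2c (-0.037 to 0.15 with 1 rat left out). With median scaling the medians of ribosomal protein and of disaccharidase and phosphatase genes were 0.04 and 0.09. The arrays' background limits genes undetected in 1 region, which have only lower bounds of their fold.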

Other observations

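Over the 487 genes higher in SBS jejunum, ileum of rat 36 was the highest of the 4 SBS ileal arrays for 244 (50.1%), that of rat 39 for 121 (24.9%), that of rat 37 for 69 (14.2%) and that of rat 38 for 53 (10.9%). Over the 511 genes lower in SBS jejunum, jejunum of rat 36 was the highest jejunal array for 188 (36.8%) and that of rat 39 for 157 (30.7%), against 76 (14.9%) for rat 37 and 90 (17.6%) for rat 38. The ileum of rat 36 and the jejunum of rats 36 and 39 thus held most often the level nearest to the other region. The median absolute log2 difference of the called probes was 0.81, 0.84, 0.81 and 0.69 in rats 36 to 39, lowest in rat 39.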
